A study of Mus musculus with 30 samples.

Results

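Cytosolic ribosomal protein genes and their tissue paralogs were examined in 5 tissues of mice lacking Clpp, which encodes a protease of the mitochondrial matrix. The members were all genes with a symbol that begins with Rpl or Rps and a digit, or that reads Rplp0, Rplp1 or Rplp2, without the ribosomal S6 kinases and the pseudogenes. Each gene had to have a probe set assigned to that symbol alone. The rule gave 71 of the 17097 genes. Of these, 64 were core ribosomal protein genes, 41 of the large subunit with its stalk and 23 of the small subunit. The paralogs Rpl3l, Rpl39l and Rps27l were measured, and the paralogs Rpl10l and Rps4l were not analysed here. The rule also took in the paralogs Rpl22l1, Rpl7l1 and Rpl36al, and Rps19bp1, which encodes a protein that binds RPS19 and is not part of the ribosome.

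RNA of testis, liver, skeletal muscle, brain and heart came from Clpp knockout mice and from wild-type littermates, all on a C57BL/6 background. Tissue and genotype made 10 groups of 3 arrays, 30 in all. The age of the mice and the design of the Clpp allele are not given in the labels. Values are log2 expression as deposited, so a difference of 1 is a doubling of the signal. No label says that replicates came from separate animals, so p-values measure only the spread between these samples. A gene was called changed at an adjusted p under 0.05 from limma, a moderated linear model, with the Benjamini-Hochberg adjustment over all 17097 genes.

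The cytosolic ribosome is built from ribosomal RNA and a set of proteins that nearly every cell makes in balanced amounts. In mammals a few of these proteins have paralogs with narrow expression: RPL3L replaces RPL3 in striated muscle, and RPL39L stands in for RPL39 in male germ cells. The X chromosome is silenced during male meiosis, and several X-linked ribosomal protein genes have autosomal copies that are expressed in the testis. Ribosomal protein mRNAs begin with a run of pyrimidines, through which the mTORC1 pathway controls their translation.

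The targeted gene Clpp ranged from 2.93 to 3.99 in knockout and from 5.88 to 9.21 in wild-type tissue. Each tissue expressed its defining markers, but 4 arrays stood apart from their groups by the marker genes described next. Wild-type testis replicate 3 carried epididymal genes, with a mean of 10.96 over 3 genes against 3.0 and 2.89 on the other wild-type testis arrays. Wild-type muscle replicate 1 carried spermatid genes, with a mean of 5.53 over 10 genes against 2.82 and 2.71. Knockout heart replicates 2 and 3 carried Myl7, which encodes the atrial myosin light chain, at 12.63 and 12.79. On the remaining heart arrays Myl7 lay at 3.59 in the knockout and at 7.42, 3.81 and 2.95 in the wild type. The fat cell gene Adipoq was also high on these knockout heart arrays, at 8.03 and 9.28 against 2.57 on knockout replicate 1 and between 2.71 and 3.29 in the wild type. The cardiac troponin genes Tnnt2 and Tnni3 lay between 12.84 and 13.31 on all 6 heart arrays. Results that rest on these 4 arrays are given with and without them. Other groups varied as well. Adipoq was at 5.87, 3.29 and 9.44 on the knockout muscle arrays. Between wild-type brain arrays the correlation over all genes went from 0.9757, the lowest in any group, to 0.9962.

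In knockout testis most ribosomal protein mRNAs were higher than in wild-type testis. Of the 71 members, 62 rose and Rpl39l fell. Over all genes 32.8% rose and 23.4% fell in testis, 56.2% in all. All 64 core genes had a difference above 0, as 51.3% of all genes did, with a median of 0.75 on the log2 scale, and 58 of them rose with the values as deposited, whereas 32 rose and 9 fell once each array was centred on its genes of mean level 6 or more. With that centring 18.7% of all genes rose, and 10014 of the 17097 fell. The centring moved the median of all genes by -0.56 and left the core genes at a median of 0.19. The 5168 genes of mean level 6 or more had a median difference of 0.69, and 62.9% of them rose. Without wild-type testis replicate 3, 60 core genes rose and none fell, with a median of 0.85. With all arrays, large-subunit genes had a median of 0.72 and small-subunit genes of 0.80. The 60 autosomal core genes had a median of 0.71, beside 0.67 for the 5017 autosomal genes of mean level 6 or more.

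**Figure D1:**
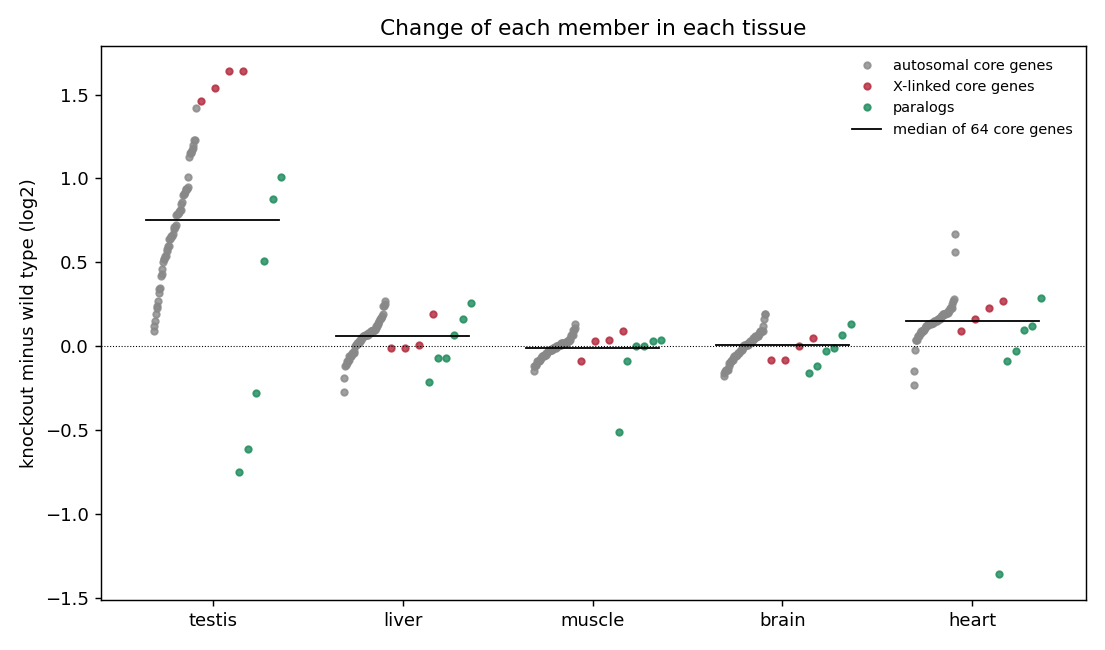
Knockout minus wild type (log2, vertical axis) of each member in each of the 5 tissues, with every point a gene from the fit over 30 arrays, grey for autosomal core genes, red for the 4 X-linked core genes and green for the 6 paralogs, and a line at the median of the 64 core genes. In testis all core genes lie above 0 with the values as deposited. Once arrays were centred on genes of mean level 6 or more, 9 of them fell, as did 10014 of all 17097 genes. The X-linked genes lie highest in testis, and Rpl39l, Rpl3l and Rpl22l1 lie below 0. In heart Rpl3l stands alone at -1.36 and Rpl3 at 0.67.

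On the probe sets used, Rps19, which encodes a protein of the small-subunit head, had the largest rise among the autosomal core genes. Its levels were 11.69, 11.77 and 11.69 in knockout testis and 10.25, 10.06 and 10.57 in wild-type testis, with no overlap. The difference was 1.42 ± 0.13 (SE, n = 3 per group; limma adjusted p = 3.56e-10). Rps2, a small-subunit protein near the mRNA entry channel, stood at 12.23, 12.33 and 12.41 against 11.17, 10.90 and 11.46. Rpl22, a large-subunit protein outside the catalytic core, stood at 10.51, 10.69 and 10.43 against 9.32, 9.24 and 9.56. In both the groups were fully separate, as they were for 59 of the 64 core genes, where knockout arrays lay above all wild-type arrays in 35.3% of all genes. Of the 6 core genes that were not called, Rpl26, Rpl36, Rpl41, Rps20 and Rps26 had differences between 0.09 and 0.24. Rps15a had 0.23, on a probe set with a mean level of 3.56 that is near the array medians of 3.24 to 3.38. Rpl14 was measured by a similarly dim probe set, with a mean of 3.61. Bright probe sets assigned to both Rpl14 and its pseudogene Rpl14-ps1 were left out by the member rule. They had means of 9.9 to 10.69 and rose by 1.49 to 1.63, more than Rps19.

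Beside these values the cell type markers of the testis moved strongly. Of 10 markers of elongating spermatids 9 fell, and their mean lay between 6.60 and 7.57 on knockout arrays and between 10.99 and 11.39 on wild-type arrays. All 6 round spermatid markers measured fell, from a range of 10.02 to 10.45 down to 5.25 to 6.82. All 9 Sertoli cell markers and all 6 Leydig cell markers rose, to ranges of 6.88 to 7.11 from 5.37 to 5.55 and of 9.83 to 10.14 from 8.28 to 8.48. Of 8 spermatogonial markers 6 rose, and of 9 spermatocyte markers 5 rose and 1 fell. A measure of RNA integrity, the 3' minus 5' signal of the Gapdh control probe sets, averaged 0.55 ± 0.03 in knockout and 0.97 ± 0.17 in wild-type testis (SD, n = 3). The part of these shifts in the ribosomal protein values was not tested, and in a whole organ fewer cells of a type and less RNA per cell cannot be told apart.

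On the probe sets used, the 4 X-linked members had the largest rises among the core genes in testis. They were Rps4x, Rpl36a, Rpl39 and Rpl10. Some other probe sets of autosomal core genes rose by as much. A separate Rpl15 probe set, with a mean of 7.97, rose by 1.8, and those shared by Rpl14 and its pseudogene by 1.49 to 1.63. RPS4X is a small-subunit protein with a copy on the human Y chromosome, RPL10 helps to join the subunits, and RPL39 lines the exit tunnel for the nascent chain. Rps4x stood at 10.41, 10.48 and 10.36 in knockout testis and at 8.16, 8.18 and 10.00 in wild-type testis. Rpl36a stood at 9.59, 9.59 and 9.30 against 7.47, 7.31 and 8.80. Rpl39 stood at 11.11, 11.14 and 10.92 against 8.84, 9.21 and 10.48. In all of these the highest wild-type array was replicate 3, the array with epididymal genes, and even that array lay below all knockout arrays. The same was seen for Rpl10, at 11.39, 11.61 and 11.43 against 9.25, 9.61 and 11.21. The differences were 1.64 ± 0.27 for Rps4x, 1.64 ± 0.22 for Rpl36a, 1.54 ± 0.23 for Rpl39 and 1.46 ± 0.26 for Rpl10 (SE, n = 3 per group), with limma adjusted p-values between 4.08e-07 and 2.76e-05.

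Without wild-type testis replicate 3 the differences became 2.25 for Rps4x, 2.11 for Rpl36a, 2.03 for Rpl39 and 2.05 for Rpl10. The median of the X-linked core genes went from 1.59 to 2.08, and that of the autosomal core genes from 0.71 to 0.83. With arrays centred on genes of mean level 6 or more, the X-linked core genes kept a median of 1.03. A separate dim probe set for Rpl39, with a mean of 3.09, changed by -0.45, in the opposite direction, while a separate probe set for Rpl10 rose by 1.82. X-linked genes of mean level 6 or more moved in the same way. Of these 142 genes 127 rose and 4 fell, with a median of 1.51 (1.73 without wild-type replicate 3). Among the 5017 autosomal genes of that level 62.2% rose, with a median of 0.67. The mean level was taken over all arrays, most of them not from testis, so genes expressed mainly in testis could be left out. The X chromosome as a whole was therefore not tested. With all arrays, the X-linked ribosomal protein genes lay near the median of the X-linked genes of that level.

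**Figure D2:**
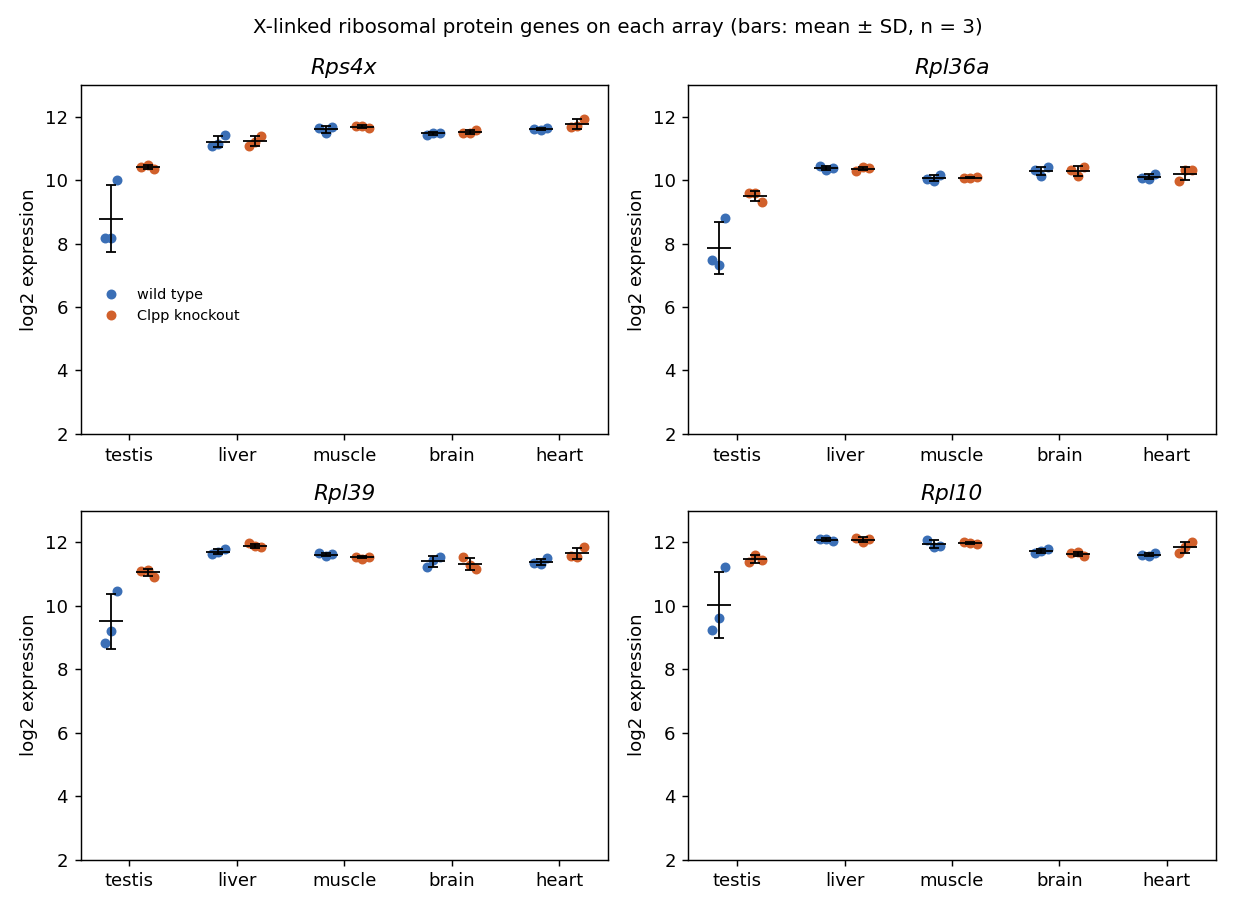
Log2 expression (vertical axis) of Rps4x, Rpl36a, Rpl39 and Rpl10 in 5 tissues, with a point for each array, blue for wild type and orange for Clpp knockout, and bars for the mean and SD of 3 arrays. Wild-type testis lies below the other tissues, its replicate 3 lies above the other wild-type testis arrays, and the knockout testis arrays lie above all wild-type testis arrays.

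The regions around the annotated starts of the X-linked members are shown because these genes moved together, with those of the paralogs Rpl39l and Rpl3l for comparison. Each covers 50 bases before and 50 bases from the start, in RefSeq's annotation of GRCm38.p6, read on the gene's strand. Capitals mark the longest run of C and T.
Rps4x, chrX:102189342-102189441, minus strand: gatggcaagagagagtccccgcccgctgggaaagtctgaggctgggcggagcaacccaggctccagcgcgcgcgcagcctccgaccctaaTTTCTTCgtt
Rpl36a, chrX:134585604-134585703, plus strand: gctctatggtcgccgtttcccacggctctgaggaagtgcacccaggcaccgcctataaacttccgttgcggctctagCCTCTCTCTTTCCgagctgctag
Rpl39, chrX:37085173-37085272, minus strand: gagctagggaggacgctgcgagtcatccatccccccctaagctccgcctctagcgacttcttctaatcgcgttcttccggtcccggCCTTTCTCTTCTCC
Rpl10, chrX:74270766-74270865, plus strand: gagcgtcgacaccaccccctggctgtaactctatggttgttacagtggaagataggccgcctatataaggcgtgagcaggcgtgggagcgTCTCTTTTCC
Rpl39l, chr16:10170178-10170277, plus strand: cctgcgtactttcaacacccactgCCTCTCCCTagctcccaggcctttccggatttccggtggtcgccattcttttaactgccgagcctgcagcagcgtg
Rpl3l, chr17:24727776-24727875, plus strand: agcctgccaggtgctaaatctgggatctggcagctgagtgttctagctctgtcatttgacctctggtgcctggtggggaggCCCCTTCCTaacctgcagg

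The longest run within the window was 13 bases in Rpl36a, 14 in Rpl39, 10 in Rpl10 and 7 in Rps4x. The runs of Rpl39 and Rpl10 reach the last base of the window, so they may be longer. In both paralogs the longest run was 9 bases, after the start in Rpl3l and before it in Rpl39l. A run of at least 8 pyrimidines on the gene's strand was present in 46 of the 57 members with a promoter entry, or 80.7%, and in 35.2% of 17491 protein-coding genes. Among the core genes with an entry the share was 82% of 50. CCGGAAG, the core of the motif that GABP binds, was found on either strand in 21.1% of members and 7.34% of all genes, and TATAAA in 8.77% and 5.35%. AAGATGGC, a YY1 motif, was found in 7.02% and 1.94%. These matches are descriptions of the letters in the window and not of binding or of a transcription start.

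Rpl39l and Rpl22l1 did not rise with their parent genes in testis, whereas Rps27l and Rpl7l1 rose. Rpl39l is a retrotransposed copy of Rpl39 that male germ cells express. Its levels were 10.52, 10.63 and 10.84 in knockout and 11.52, 11.33 and 11.40 in wild-type testis, with all knockout arrays below all wild-type arrays, as in 28.2% of all genes. The difference was -0.75 ± 0.25 (SE, n = 3 per group; limma adjusted p = 0.0118), and with the values as deposited it was the only fall among the members that passed the test. With arrays centred on genes of mean level 6 or more 12 members fell, where 10014 of all 17097 genes did. With centring on all genes 2 members fell, where 4127 of all genes did. Without wild-type testis replicate 3 the Rpl39l difference was -0.76 (limma adjusted p = 0.0254). On the same arrays Rpl39 rose, so the difference of Rpl39l and Rpl39 within an array changed by -2.30 between genotypes (-1.30 with the mean over probe sets, -2.79 without wild-type replicate 3). The 3 knockout arrays lay apart from the 3 wild-type arrays in that measure (exact permutation p = 0.1, two-sided, the smallest that 3 against 3 can give, and 0.5 after adjustment over 25 comparisons).

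Rpl22l1, the paralog of Rpl22, stood at 9.69, 9.73 and 9.61 in knockout and at 9.92, 10.06 and 9.91 in wild-type testis. These groups did not overlap, but its difference of -0.28 ± 0.18 did not pass the test (SE; limma adjusted p = 0.19), while Rpl22 rose by 1.17. With arrays centred on genes of mean level 6 or more the Rpl22l1 difference was -0.84 and passed (limma adjusted p = 0.000163), and on the testis arrays fitted alone it was -0.28 and passed (limma adjusted p = 0.0486). The difference of paralog and parent changed by -1.45 (exact permutation p = 0.1). Rpl36al, an autosomal relative of the X-linked Rpl36a, rose by 0.51 with the values as deposited but was at -0.05 with arrays centred on genes of mean level 6 or more. Relative to Rpl36a it changed by -1.13 (exact permutation p = 0.1). The only probe set of Rpl36al carries a suffix that marks probes shared between transcripts. Rps27l, a paralog of Rps27 that p53 activates, rose by 1.01 ± 0.13 (limma adjusted p = 3.32e-07), from 9.85, 9.68 and 9.91 to 10.89, 10.83 and 10.76. Rpl7l1, a factor in the making of the large subunit, rose by 0.88, and its difference from Rpl7 within an array changed by 0.02 (exact permutation p = 1). Rpl3l was near the array medians in testis, at 3.19 to 3.24 in knockout and at 3.50, 3.21 and 4.75 in wild type. Its difference of -0.61 did not pass the test with the values as deposited, was -1.17 and passed with arrays centred on genes of mean level 6 or more, and was -0.15 without wild-type replicate 3.

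**Figure D3:**
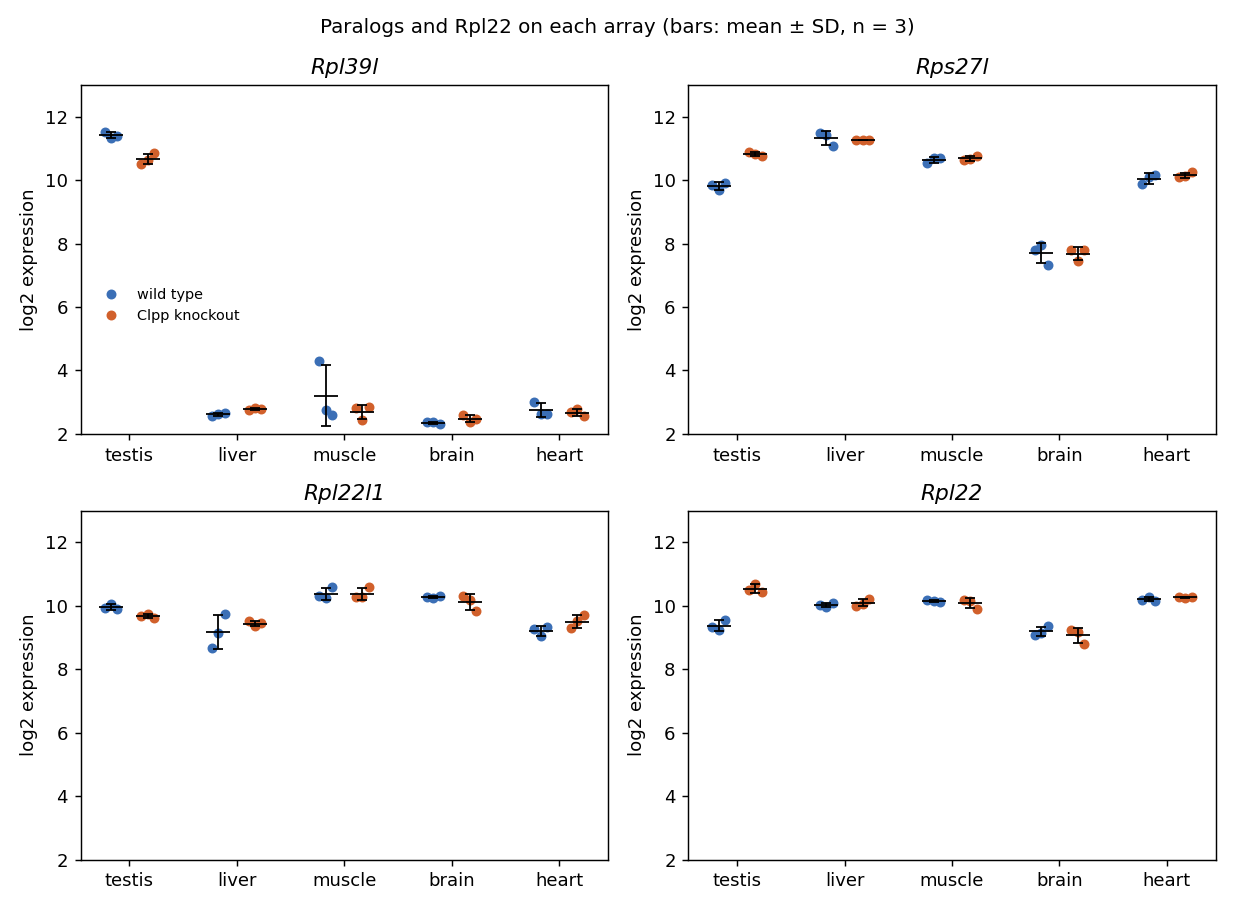
Log2 expression (vertical axis) of the paralogs Rpl39l, Rps27l and Rpl22l1 and of Rpl22 in 5 tissues, with a point for each array, blue for wild type and orange for Clpp knockout, and bars for the mean and SD of 3 arrays. Rpl39l is high in testis alone and lower on knockout testis arrays, Rps27l is lowest in brain, and Rpl22 but not Rpl22l1 is higher in knockout testis.

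In heart, Rpl3l and Rpl3 were the only members called, 2.82% of the 71 where 2.18% of all genes were called, 1.11% up and 1.07% down. Rpl3 makes up part of the peptidyl transferase region, and Rpl3l takes its place in heart and skeletal muscle. Rpl3l was at 10.00, 8.78 and 8.58 in knockout heart and at 10.57, 10.48 and 10.40 in wild-type heart. The difference was -1.36 ± 0.28 (SE, n = 3 per group; limma adjusted p = 0.00703), and all knockout arrays lay below all wild-type arrays, as in 11.6% of all genes. Rpl3 was at 11.15, 11.51 and 11.80 in knockout and at 10.58, 10.74 and 11.13 in wild-type heart, again with no overlap. It rose by 0.67 ± 0.17 (limma adjusted p = 0.0294). Within an array the difference of Rpl3l and Rpl3 went from -0.33 ± 0.36 in wild type to -2.37 ± 1.09 in knockout (SD, n = 3; exact permutation p = 0.1, and 0.5 adjusted over 25 comparisons).

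Rpl3l was lowest and Rpl3 highest on knockout heart replicates 2 and 3, the arrays that carried Myl7 and Adipoq. Nppa, an atrial hormone that stressed ventricles also make, was at 13.06 and 13.14 on these arrays, at 9.30 on knockout replicate 1 and between 9.64 and 11.06 in the wild type. Without both arrays the Rpl3l difference was -0.48 ± 0.32 (limma adjusted p = 0.787) and the Rpl3 difference 0.33 ± 0.22 (limma adjusted p = 0.779), and no member was called. The lone knockout array was then assumed to vary like the other groups. Leaving out knockout replicate 2 or 3 alone also ended both calls, and leaving out wild-type replicate 1 or 2 ended that of Rpl3. Fitted on the 6 heart arrays alone, no member was called. The part of atrial and fat tissue in these differences was not tested.

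**Figure D4:**
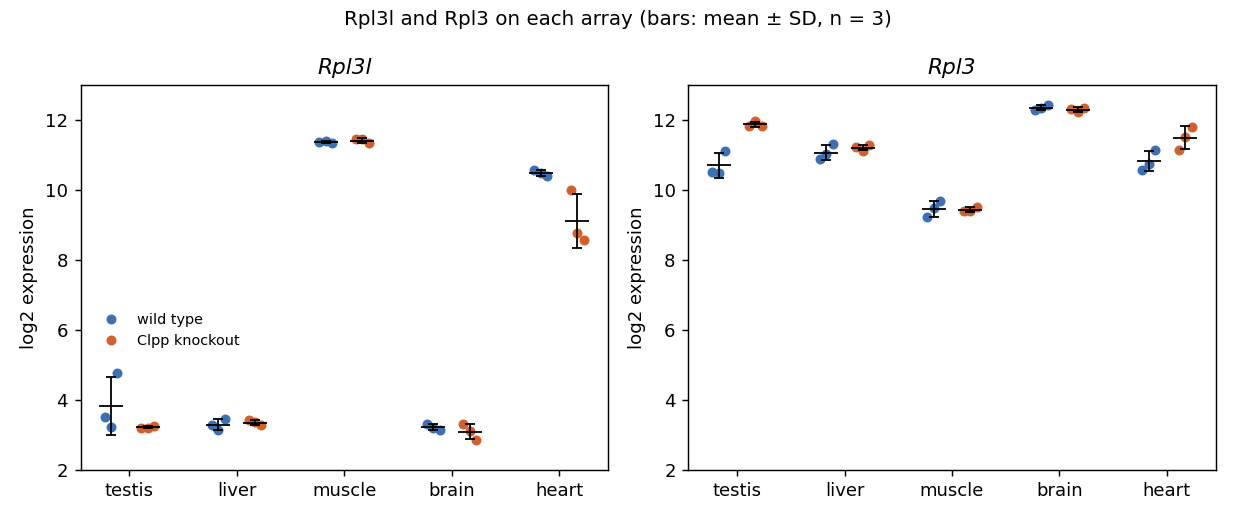
Log2 expression (vertical axis) of Rpl3l and Rpl3 in 5 tissues, with a point for each array, blue for wild type and orange for Clpp knockout, and bars for the mean and SD of 3 arrays. Rpl3l is high in muscle and heart, Rpl3 is lowest in muscle, and knockout heart replicates 2 and 3, which carry the atrial gene Myl7, have lower Rpl3l and higher Rpl3 than replicate 1.

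The other members of the heart had small differences, most of them above 0. Of the 64 core genes 61 had a difference above 0 where 47.4% of all genes did, with a median of 0.15 against -0.01 for all genes. In 26 of the 64 core genes all knockout arrays lay above all wild-type arrays, where they did in 7.73% of all genes. The 5168 genes of mean level 6 or more had a median of -0.08 in heart, with 35.3% above 0. In 342 of them all knockout arrays lay above all wild-type arrays. Without knockout replicates 2 and 3 the core median was 0.09, with 54 above 0. Rpl12, a protein at the base of the stalk, came closest to a call after Rpl3, at 0.56 ± 0.15 (limma adjusted p = 0.0539). Its levels were 10.76, 10.76 and 11.06 in knockout and 10.25, 10.28 and 10.37 in wild type. The 4 X-linked core genes had differences between 0.09 and 0.27 in heart, and none passed the test.

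In liver, muscle and brain limma called no member, where 2.42%, 1.54% and 0.415% of all genes were called. At an unadjusted p under 0.05 there were 3 members in liver, none in muscle and 1 in brain, where 13.1%, 12.8% and 7.91% of all genes passed. The core genes lay between -0.27 and 0.27 in liver, between -0.15 and 0.13 in muscle and between -0.18 and 0.19 in brain, with medians of 0.06, -0.01 and 0. In the mean of liver, muscle, brain and heart no member was called by limma, where 4.02% of all genes were, and 6 members had an unadjusted p under 0.05, as did 18.2% of all genes. In muscle, all 6 markers of slow fibres rose, with a median of 4.28, while Rpl3l stood at 11.45, 11.44 and 11.34 in knockout and at 11.36, 11.41 and 11.35 in wild type. The Rpl3l difference in muscle was 0.04 ± 0.28 (SE; limma adjusted p = 0.987). Rpl39l in muscle was at -0.51 ± 0.25, which rested on wild-type replicate 1 at 4.30, the array with spermatid genes, and was 0.03 without it.

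The effect of the knockout differed between the 5 tissues for 57 of the 71 members by the moderated F test at an adjusted p under 0.05, where it did for 52.3% of all genes. With arrays centred on genes of mean level 6 or more the count was 24. Between the 4 tissues other than testis it differed for no member by the same test, where 1.66% of all genes were called. At an unadjusted p under 0.05 there were 2 members, where 14% of all genes passed. In the limma F test over those 4 tissues the adjusted p was 0.110 for Rpl3l, 0.237 for Rpl3, 0.451 for Rpl21 and 0.465 for Rpl9. Rpl3, Rpl21 and Rpl9 had the smallest p-values of the core genes in that test.

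Among wild-type tissues the paralogs Rpl3l and Rpl39l had the strongest patterns of the members. Rpl3l stood at 11.38 in muscle and 10.48 in heart, against 3.82 in testis, 3.28 in liver and 3.21 in brain, each a mean of 3 arrays. Between pairs of wild-type tissues limma called from 35.9% to 69.1% of all genes. Muscle exceeded heart by 0.90 ± 0.28 (SE; limma adjusted p = 0.0134), and liver, brain and testis did not differ from one another beyond their spread. Rpl3 ran the other way in muscle, where it was lowest at 9.46, and stood at 10.70 in testis, 10.82 in heart, 11.07 in liver and 12.35 in brain. Testis, heart and liver did not differ in Rpl3 beyond their spread. The difference of muscle from the mean of the other 4 tissues was -1.77 ± 0.13 and that of brain 1.84 ± 0.13, and both were called under every alternative tried. Over the 10 group means, the genes whose pattern was most like that of Rpl3l, out of 10207 candidates, were 1700120C14Rik, Nrap, Asb15, Ckm and Myadml2, with Pearson r between 0.996 and 0.998.

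Rpl39l stood at 11.52, 11.33 and 11.40 in wild-type testis and between 2.31 and 3.01 in the other wild-type tissues, apart from muscle replicate 1 at 4.30. The other tissues lie below or near the array medians, so neither the size of the difference nor an order among them is given. Its closest patterns were those of Syce1, Tmbim7, Mael, Mettl4-ps1 and 1700010B08Rik, with r from 0.999 to 1. Syce1 encodes a part of the synaptonemal complex, and Mael protects the germ line against transposons.

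Rps27l was highest in wild-type liver at 11.34, followed by muscle at 10.65, heart at 10.05 and testis at 9.81, and was lowest in brain at 7.69. Heart and testis did not differ beyond their spread, and the other neighbours in this order did. Brain lay 2.77 below the mean of the other tissues on the log2 scale and its arrays read 7.81, 7.94 and 7.33. The probe set used for Rps27l carries the suffix that marks probes able to hybridize with other transcripts, so its signal and that of close relatives cannot be told apart. A further Rps27l probe set with the same suffix gave -2.68 in brain, and another that also carries a suffix gave -2.72. Its closest pattern was that of Ccdc58, with r = 0.979.

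Rpl22 and Rpl22l1 had opposite patterns in some tissues. Wild-type brain had a difference of -0.75 ± 0.09 in Rpl22 and of 0.60 ± 0.14 in Rpl22l1. Wild-type heart had 0.52 ± 0.09 in Rpl22 and -0.74 ± 0.14 in Rpl22l1. In muscle both lay above the mean of the other 4 tissues, by 0.45 and 0.73, although Rpl22 in muscle did not differ from heart or liver beyond the spread, nor Rpl22l1 from brain. In liver Rpl22 was at 0.30 and Rpl22l1 at -0.78. A separate, dimmer probe set for Rpl22 gave 0.62 in brain and -0.02 in liver, so its pattern in those tissues depends on the probe set.

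Among the core genes, wild-type testis was set apart by its low X-linked members. Testis minus the mean of the other tissues was -2.69 ± 0.21 for Rps4x, -2.35 ± 0.17 for Rpl36a, -2.02 ± 0.18 for Rpl39 and -1.82 ± 0.21 for Rpl10 (SE; limma adjusted p between 2.9e-12 and 1.18e-08). Their median was -2.18 as deposited, and between -2.64 and -1.67 under the other scalings. The median over 142 X-linked genes of mean level 6 or more was also -2.18, beside -0.58 for the 5017 autosomal genes of that level. Both sets were chosen by the mean over all arrays, so genes expressed mainly in testis could be left out. Without wild-type testis replicate 3 the median of the X-linked core genes was -2.66. In the other tissues Rps4x lay between 11.09 and 11.66 on wild-type arrays, with liver lowest.

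Single core genes departed from the rest in brain. Rplp0, the scaffold of the stalk, was 1.28 lower in brain on the log2 scale, at 10.43, 10.50 and 10.29, than in the other wild-type tissues. Rps20 was 0.90 lower in brain and 0.75 higher in testis on its brightest probe set, and a second bright probe set gave -0.82 and 0.51. A probe set without a shared-hybridization suffix gave 0.07 in brain and -0.50 in testis, at a mean of 2.70 that lies below the array medians. Rps15a was at 5.33, 5.29 and 5.72 in brain on the dim probe set described above, and between 2.63 and 3.59 in the other wild-type tissues, around the array medians, so no size is given for this difference. Rps21 was 0.83 higher in brain. Among the other core genes with the largest called differences, Rps2 was at 0.70 in muscle, Rps9 at 0.64 in heart, Rps7 at 0.50 in testis, Rplp2 at -0.59 in liver, Rpl41 at -0.35 in muscle and Rpl37a at -0.27 in heart. Rps13 in liver was at -0.66, at -0.85 on a second bright probe set and at 0.47 on a dim one with a mean of 4.28. Rps6, the ribosomal substrate of the S6 kinases, was at -0.27 in muscle and -0.26 in heart and above 0 in both with other probe set rules.

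The counts of members that passed the test were 17 up and 33 down in wild-type testis, 16 and 30 in liver, 34 and 7 in muscle, 27 and 21 in brain, and 18 and 13 in heart. Over all genes 32.1% were up and 40.7% down in testis, 25.5% and 40.8% in liver, 26.3% and 37.4% in muscle, 28.1% and 46.5% in brain, and 27.5% and 33.6% in heart. In all 72.8%, 66.3%, 63.7%, 74.7% and 61.1% of genes were called in these contrasts. The split had no stable direction under other scalings. With arrays centred on the median of all genes it was 2 up and 58 down in testis, 36 and 10 in liver, 60 and 2 in muscle, 14 and 35 in brain, and 34 and 4 in heart. The split of all 17097 genes moved as well. In the same order of tissues 24.5%, 44.9%, 45.4%, 23% and 34.1% of all genes were then up. The numbers down were 11251, 5186, 4728, 10610 and 4944. With arrays centred on genes of mean level 6 or more the split of the members was 42 and 10 in testis, 14 and 33 in liver, 12 and 30 in muscle, 36 and 18 in brain, and 5 and 41 in heart. Of all genes 57.3%, 24.2%, 18.1%, 30.8% and 19.3% were then up, and 4679, 7196, 10431, 6556 and 9506 were down. With quantile normalization the split of the members was 23 and 31, 13 and 34, 25 and 11, 37 and 18, and 14 and 18 in the same order. Of all genes 31.4%, 26.2%, 26.6%, 26.3% and 28.2% were then up, and 6980, 6754, 6201, 7700 and 5544 were down. No tissue is therefore described as having more or less ribosomal protein mRNA as a group.

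**Figure D5:**
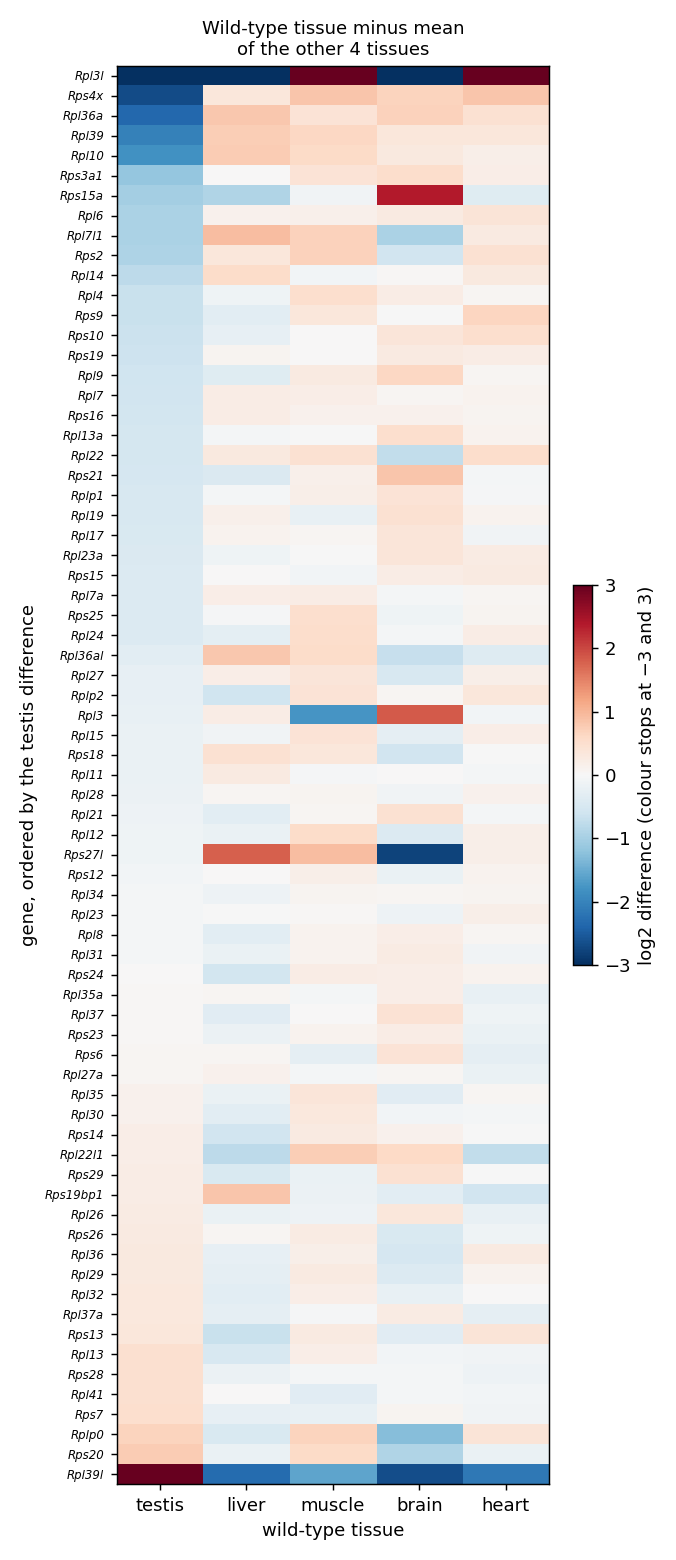
Each wild-type tissue minus the mean of the other 4 wild-type tissues (log2, colour, which stops at -3 and 3) for the 71 members in rows, ordered by the testis difference. Rpl3l and Rpl39l have the deepest colours, the 4 X-linked core genes are blue in testis, and the general tint of a column changes with the scaling.

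Of 87 other genes of ribosome making and translation that were measured, 44 rose and 13 fell in knockout testis, with a median of 0.37. Over all genes 32.8% rose and 23.4% fell, and among the 5168 genes of mean level 6 or more 62.9% rose with a median of 0.69, so the counts are given as a description. Of 46 measured ribosome biogenesis genes, 27 rose and 6 fell in knockout testis, with a median of 0.58. The largest rises were those of Gar1 (1.63), which belongs to the pseudouridylation complex, Las1l (1.62), which cleaves the precursor of ribosomal RNA, and Fbl (1.61), the methyltransferase fibrillarin. Of 11 genes of RNA polymerase I and its factors, 5 rose and 2 fell, among them the initiation factors Rrn3 at 1.53, Ubtf at 1.43 and Taf1d at 1.12. Of 16 elongation and ribosome-associated factors, 6 rose and 4 fell, with Eef1e1 at 1.88, the release factor Etf1 at 1.72 and Eef1d at -1.27. Of 13 genes of the control of pyrimidine-tract mRNAs and of mTORC1, 5 rose and 1 fell. Cnbp, which binds such mRNAs, rose by 1.71, and Rheb, the activator of mTORC1, by 1.58. The fall was that of Eif4e, the cap-binding protein, from 9.79, 9.46 and 9.69 to 4.46, 4.06 and 4.88. Fau, a ribosomal protein gene with another name, was at 0.23 in testis as deposited and at -0.33 with arrays centred on genes of mean level 6 or more.

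In heart 3 of these 87 genes were called, all of them up, where 2.18% of all genes were called and 1.11% were up. The count is small and is given as a description. Eef1a1, the elongation factor whose mRNA has a pyrimidine tract like those of ribosomal proteins, was at 11.78, 12.21 and 12.52 in knockout and at 11.60, 11.48 and 11.42 in wild-type heart. It rose by 0.67 ± 0.13 (SE; limma adjusted p = 0.00506), most on the arrays with Myl7, and its difference was 0.28 without them (limma adjusted p = 0.623). Myc, a regulator of ribosome making, was at 3.94, 5.58 and 6.24 against 3.53, 3.50 and 3.6, and Eif4ebp1 rose by 0.67. Without the same arrays the Myc difference was 0.40 (limma adjusted p = 0.972) and no companion gene was called. In liver, muscle and brain no companion gene was called by limma. Eef1a2 is the paralog of Eef1a1 that adult muscle and neurons use. Eef1a1 lay between 10.46 and 10.73 in all muscle arrays, below all arrays of the other tissues, and Eef1a2 was at least 9.62 in muscle, heart and brain and at most 4.87 in testis and liver.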

How the data were processed

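Total RNA was labelled with the 3'IVT Express kit and hybridized to Affymetrix mouse arrays, per the labels. The authors deposited log2 expression values per probe set, made with RMA in R 2.14.0, per the submitters' processing notes. Whether all arrays were normalized together is not given in the sources used here. The table held 45141 probe sets, 28898 of them with 1 gene symbol in the platform annotation, and each gene took its value from its brightest probe set, by mean over the 30 arrays. Of the 71 members 38 had 1 probe set and 33 had more, and in testis all probe sets of a gene had 1 sign in 24 of these 33, and in 27 of the 28 with several probe sets of mean level 6 or more, counting only those probe sets. Of 76 standard core genes 12, among them the parent gene Rps27, were without a probe set of that symbol alone. All 71 members were found by Entrez identifier in RefSeq's table of GRCm38.p6.

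The fit used limma 3.58.1 in R 4.3.3, with 10 group means, 20 residual degrees of freedom and no further normalization, and was checked on simulated data. Each tissue's knockout was set against its wild type, and the analysis added the average of these differences over liver, muscle, brain and heart, F tests over 5 and 4 tissues, and each wild-type tissue against the mean of the others. Paralog minus parent was compared between genotypes only, since levels of different probe sets have no common scale. Paralog minus parent was tested by exact permutation. The number of arrays limits the precision.

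The rule for named genes took the paralogs and their parents, the 5 largest called rises and falls of core genes in each knockout contrast with separated groups, the 3 largest in each wild-type contrast, the 3 core genes with the smallest F test p-values, and up to 3 called companion genes per list and tissue. Rpl12 in heart, and Rpl14, Rpl15, Rpl26, Rpl36, Rpl41, Rps15a, Rps20 and Rps26 in knockout testis, were named after their values were seen. The members and lists were chosen with earlier results of these data known. Alternatives were other scalings, priors, array weights, filters, probe set rules, arrays left out and replicate blocks. Leaving out arrays that stood apart was added after seeing the data.

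No arrays had identical values.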

Additional observations from a re-analysis of the deposited data

Results flagged for a closer look

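The effect of the knockout differed between the 5 tissues for 57 of the 71 members by the limma F test at an adjusted p under 0.05. It did so for 52.3% of all genes. With arrays centred on genes of mean level 6 or more the member count was 24. With the values as deposited, the core genes with the smallest limma adjusted p-values were Rps19 (1.44e-07), Rps2 (4.31e-07) and Rpl22 (7.09e-07). Each had a rise in testis and differences of at most 0.12 in size in the other tissues. The X-linked genes had limma adjusted p-values of 0.00208 for Rps4x, 0.000129 for Rpl36a, 0.000481 for Rpl39 and 0.00401 for Rpl10. Rpl3l (limma adjusted p = 0.015) and Rpl3 (limma adjusted p = 0.00024) differed between tissues as well, and their heart values rest on knockout replicates 2 and 3 as described above.

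The member rule left out 19 ribosomal protein probe sets because they are assigned to several symbols or to a pseudogene. Of these, 14 were higher on every knockout testis array than on every wild-type testis array. The same held for 35.3% of all genes, and for 3291 of the 5168 genes of mean level 6 or more. The testis differences of the 19 probe sets lay between -0.34 and 1.63, the latter on a probe set assigned to Rpl14 and its pseudogene Rpl14-ps1.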

How the results depend on the processing

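There were 92 changes of named genes, with 3931 values under alternatives, of which 3839 kept their direction and their side of the threshold, 60 lost the call, 10 gained it and 22 changed sign. The number of members called moved by more than 1.5 times as follows, and the cause was not tested. In heart it was 4 with array weights and 0 with the tissue fitted alone or without knockout replicates 2 and 3, and it ranged from 0 to 3 with 1 array left out. In the mean of 4 tissues it was 1 with centring on all genes, the trended prior, either filter or both other arrays that stood apart left out, 2 with centring on genes of mean level 6 or more and 3 with array weights, and it ranged from 0 to 2 with 1 array left out. In the F test over 5 tissues it was 24 with centring on genes of mean level 6 or more. Over 4 tissues it was 2 with array weights and 1 with the testis and muscle arrays that stood apart left out, and 0 to 1 with 1 array left out. In wild-type muscle it was 62 with centring on all genes.

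Companion genes called in liver were 1 with quantile normalization, centring on genes of mean level 6 or more, array weights or the filter at 6, and 2 with the mean over probe sets, with a range of 0 to 2 with 1 array left out. In brain they were 1 with array weights, the filter at the median or heart knockout replicates 2 and 3 left out (0 to 1 with 1 array left out). In heart they were 0 with the tissue alone or without those arrays (0 to 3 with 1 array left out). Rpl39l minus Rpl39 in testis changed by -1.3 with the mean over probe sets. Rpl3l minus Rpl3 in heart changed by -0.81 without knockout replicates 2 and 3.

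Changes that reversed with centring on genes of mean level 6 or more were Eef1a1 (-0.12), Fau (-0.33) and Rpl36al (-0.05) in knockout testis, Rpl7l1 in knockout (0.01) and wild-type heart (-0.01), and Rpl36al in wild-type testis (0.19). With probe sets free of suffixes they were Rpl39 in knockout testis (-0.45) and wild-type testis (0.09), Rps20 in wild-type brain (0.07) and testis (-0.5), Rps13 in wild-type liver (0.47), and Rps6 in wild-type heart (0.56) and muscle (0.08). With the mean over probe sets they were Rps6 in wild-type heart (0.09) and muscle (0.04) and Rpl7l1 in wild-type muscle (-0.22). Rps6 in wild-type muscle was 0.01 with centring on all genes. Rpl7l1 in knockout heart was 0.01 with quantile normalization, 0.08 without knockout replicates 2 and 3, and between -0.09 and 0.04 with 1 array left out (0.03 without wild-type replicate 3). Rpl39l in knockout heart lay between -0.16 and 0.04 with 1 array left out, the latter without wild-type replicate 1.

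With the replicate block, 64 members were called in testis and 2 in heart, and all 13 counts of the knockout contrasts and F tests stayed within 1.5 times. Deviations from the group means of same-numbered knockout and wild-type arrays correlated between -0.13 and 0.24. In no tissue were all 3 correlations over 0.1. With 3 arrays per group these values cannot show whether same-numbered arrays were paired.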
